A study of Mus musculus with 231 samples.

Results

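The mature miRNAs mmu-miR-574-3p, mmu-miR-574-5p, mmu-miR-1249-3p and mmu-miR-204-5p (the species prefix is left out of later sentences) are 4 of the 1863 miRNAs in the raw counts and of the 1895 in the deposited CPM of a time series of mouse blood. They were selected on their measured CPM, which fell between month 0 and the last library of mice of the leukemia model. That change is therefore described here without a test, and tests were kept to libraries that did not enter the choice.

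Small RNA was sequenced from the mononuclear cells of peripheral blood (PBMC), drawn from mice of the C57BL/6 strain. CM mice (7 in the training cohort, genotype code CHW) carried a conditional Cbfb-MYH11 allele, the mouse form of the fusion gene of inv(16) acute myeloid leukemia, together with Mx1-Cre. Littermate Ctrl mice (7, with 4 coded CW, 2 coded HW and 1 coded WT) received the same poly(I:C), 7 doses of 14 mg/kg at an age of 6 to 8 weeks, so this agent was common to both arms. The labels describe the controls as lacking the transgene, and the genotype codes are not explained. Mx1-Cre responds to interferon and recombines in many cell types besides blood stem cells, and PBMC are a mixture of cells. The training libraries (53 CM and 76 Ctrl) were drawn before induction (month 0) and monthly to month 10, and the last CM library came at month 4 in 2 mice and between months 6 and 10 in the other 5. A validation cohort of 10 CM and 6 Ctrl mice contributed libraries at points numbered 1 to 7 and at a point named L. The labels do not explain point L. Its CM mice were coded CHW and its Ctrl mice CW (3), HW (2) and WT (1), with the same poly(I:C) and age. Training CM mice were 4 females and 3 males, and training Ctrl mice 2 females and 5 males. Validation mice were 5 females and 5 males in CM, and 3 females and 3 males in Ctrl.

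A mature miRNA is cut from a hairpin precursor and guides the silencing machinery to mRNAs that pair with its seed, bases 2 to 8 counted from the 5′ end. The strands of one hairpin, named 5p and 3p, have different seeds and so different targets, and 1 of them is usually kept in excess. MiR-574-5p is rich in alternating G and U. MiR-204 is known from retinal pigment epithelium and other epithelia, and has been linked in myeloid leukemia to the homeobox transcripts HOXA10 and MEIS1. MiR-211 is its close relative and is known from melanocytes.

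The sequences below are RefSeq entries for GRCm38.p6, found for all 4 members, with the seed in capitals, and miR-211-5p is shown because its counts bear on those of miR-204-5p.

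mmu-miR-574-5p: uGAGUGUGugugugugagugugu
mmu-miR-574-3p: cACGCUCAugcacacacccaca
mmu-miR-1249-3p: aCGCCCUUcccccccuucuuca
mmu-miR-204-5p: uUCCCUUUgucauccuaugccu
mmu-miR-211-5p: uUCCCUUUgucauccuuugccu

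No other mature entry of that table had the seed of miR-574-5p, miR-574-3p or miR-1249-3p, so the members form no seed family among themselves. The seed of miR-204-5p was shared by miR-211-5p and miR-7670-3p. MiR-204-5p and miR-211-5p differed at 1 of 22 positions (A17U, counted from the 5′ end of miR-204-5p). Reads with an error there can be counted under the other name, so the level of miR-204-5p is uncertain wherever miR-211-5p is far more abundant.

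In the mm9 genome (NCBIM37), Mir574 occupied 65361557 to 65361634 of chromosome 5 (plus strand), inside an intron of Fam114a1 on the same strand. MiR-574-5p was found at 65361567 to 65361589 and miR-574-3p at 65361603 to 65361624. Mir1249 occupied 84781956 to 84782053 of chromosome 15 (minus strand) within 5031439G07Rik, and miR-1249-3p (84781975 to 84781996) was intronic in 3 of its 4 annotated transcripts and overlapped an exon in 1. Mir204 occupied 22825095 to 22825162 of chromosome 19 (plus strand), and miR-204-5p (22825100 to 22825121) was intronic in all 9 overlapping transcripts of Trpm3. MiR-211-5p lay at 71350717 to 71350738 of chromosome 7, intronic in 10 transcripts of Trpm1.

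Training libraries held 1792809 to 7958411 counts. Levels of training libraries are given as CPM, raw counts per 1000000 with the library size scaled by TMM, a trimmed mean of log ratios. Over all training libraries the mean level was 98.3 CPM for miR-1249-3p, 37.3 for miR-574-3p, 22.3 for miR-574-5p and 5.98 for miR-204-5p, and these miRNAs are of nearly equal length (22 or 23 bases). MiR-204-5p had 3 counts or fewer in 37 libraries, and the other members had more in every library. Its counts made up a median of 4.76% of the sum for miR-204-5p and miR-211-5p, and above 50% in 4 libraries. The serial numbers in the sample titles broke between months 5 and 6 in CM mouse 3334 and Ctrl mouse 3335. Labels were followed, and results that changed without these mice are given both ways.

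**Figure D1:**
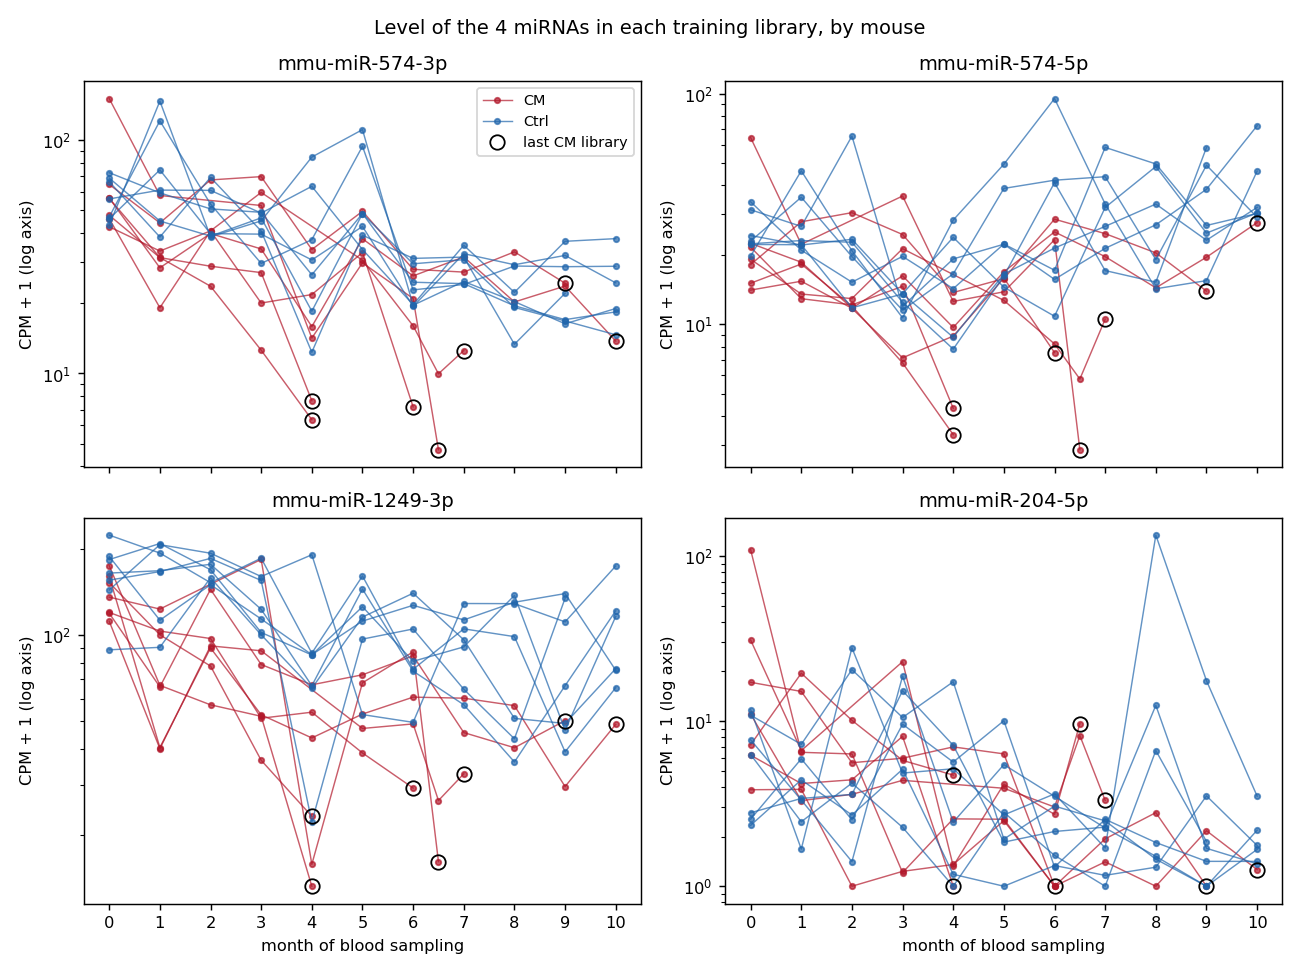
CPM + 1 (log axis) of each member against the month of blood sampling, with 1 line per mouse, CM in red, Ctrl in blue and the last library of each CM mouse ringed. MiR-574-3p and miR-1249-3p decline in both arms, miR-574-5p ends higher in Ctrl mice than it began, and the single high Ctrl value of miR-204-5p at month 8 belongs to mouse 3339 (132.9 CPM).

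Between month 0 and the last library, miR-574-3p was lower in 7 of 7 CM mice. Its level was 41.6 to 149.9 CPM (median 55.3) at month 0 and 3.71 to 23.4 CPM (median 6.64) in the last libraries, so the groups did not overlap. The log2 change was -2.62 ± 0.42 (SE, n = 7 and 7), and -2.14 without mouse 3334, which had the highest level at month 0. In 6 of the 7 mice the last level was below that of every Ctrl library of the same month (months 6 and 7 for the mouse sampled at month 6.5). In mouse 3370, sampled last at month 9, it lay inside the Ctrl range of 15.3 to 35.9 CPM. In bulk samples, fewer cells of a type and less RNA per cell cannot be told apart.

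MiR-1249-3p was also lower in 7 of 7 mice, from 110.7 to 174 CPM (median 134.6) at month 0 to 12.3 to 49.2 CPM (median 28.2), again without overlap. Its log2 change was -2.12 ± 0.28. The last level was below all same-month Ctrl libraries in 5 of 7 mice.

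MiR-574-5p, the other strand of the miR-574 hairpin, ranged from 13.1 to 63.5 CPM (median 18.1) at month 0 and from 1.86 to 26.6 CPM (median 6.54) in the last libraries. It was lower in 6 mice, while in mouse 3368 it went from 21.4 to 26.6 CPM. The log2 change of -1.33 ± 0.55 was -0.69 without mouse 3334. The groups overlapped, and its last level was below every same-month Ctrl library in 7 of 7 mice. Since the last libraries entered the choice of the members, such counts and gaps between groups are partly built in. Their share over all miRNAs is not given here.

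MiR-204-5p was 2.84 to 108.2 CPM (median 10.0) at month 0 and 0 to 8.66 CPM (median 0.261) in the last libraries, where only 3 of 7 libraries held more than 3 counts. Its log2 change of -3.38 ± 1.07 is the least precise of the members, and was -4.39 without mouse 3334 and -2.06 without mouse 3370. The highest values at month 0, 108.2 CPM in mouse 3370 and 29.99 CPM in mouse 3334, had ranks 2 and 3 among all training libraries. In mice 3334 and 3336 the last level was above, not below, all Ctrl libraries of the same month.

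The choice followed this change only in part. As background, 71 of 446 miRNAs (15.9%) were lower in the last libraries at an edgeR adjusted p under 0.05. No call is given for the members, which were chosen on these libraries. By the size of the change alone, miR-204-5p held rank 1 from the lowest, with miR-574-3p at rank 2 and miR-1249-3p at rank 8. MiR-574-5p held rank 39, between miR-450a-5p (-1.36) and miR-345-5p (-1.28). Next to miR-1249-3p stood miR-135a-5p (-2.18) and miR-139-5p (-2.07), which are no members. The median change over all miRNAs tested was -0.06.

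**Figure D2:**
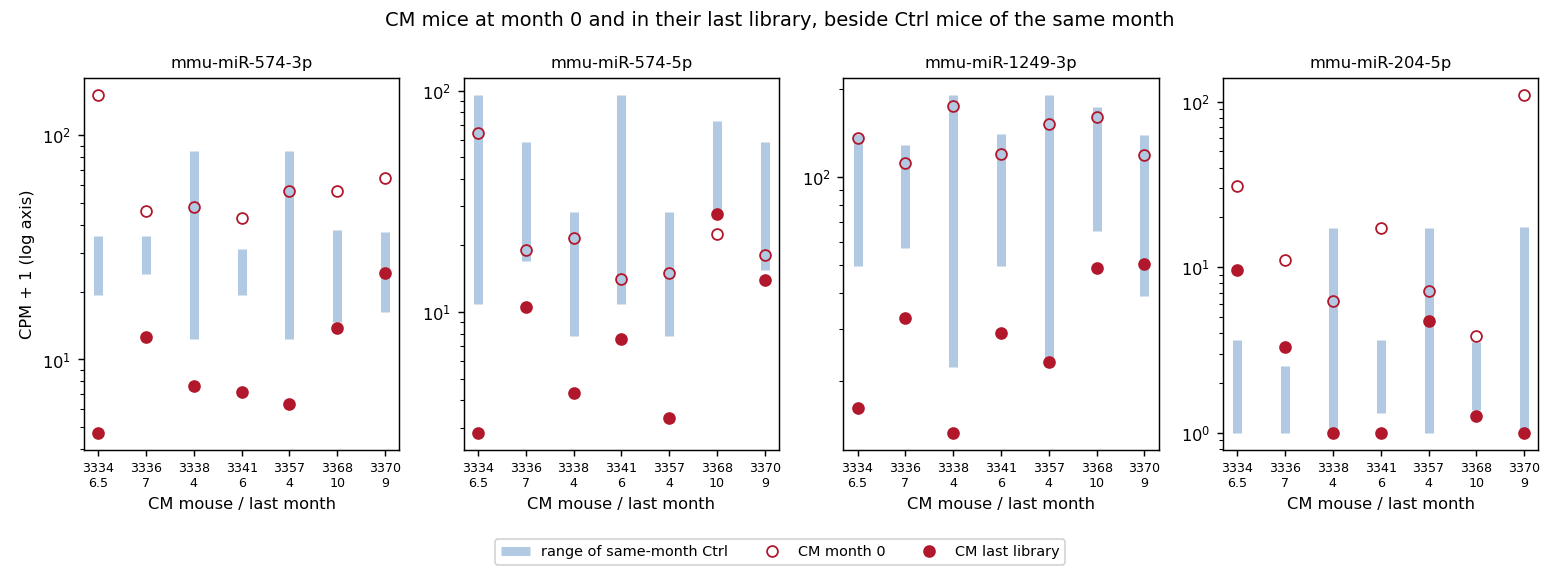
CPM + 1 (log axis) in each CM mouse at month 0 (open circles) and in its last library (filled circles), with the range of Ctrl libraries of the same month as a blue bar (months 6 and 7 for mouse 3334) and the last month under each mouse number. Filled circles lie below the bar in 6 of 7 mice for miR-574-3p and in 7 of 7 for miR-574-5p, and above it in 2 mice for miR-204-5p.

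Markers of blood cells moved between these libraries as well. The summed level of miR-126a-3p and -5p, found in blood progenitors and endothelium, was 157 to 260 CPM at month 0 and 324 to 7544 CPM in the last CM libraries. The myeloid markers miR-223-3p and -5p had medians of 9138 and 4543 CPM, and the lymphocyte markers miR-150-5p and -3p had medians of 45757 and 23374 CPM. Both erythroid (4 of 4) and epithelial (7 of 7) lists were detected, with overlapping ranges. All markers of these lists had median counts above 0 in both groups. Their part in the change of the members was not tested.

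The arms were then compared in libraries that the choice had not used, with counts summed per mouse. MiR-1249-3p was lower in CM mice already at months 1 to 3. Its level was 58.04 to 143.99 CPM (median 73.2) in 7 CM mice and 112.01 to 186 CPM (median 157) in 7 Ctrl mice, and 6 of 7 CM mice lay below every Ctrl mouse. The exception was mouse 3334. The log2 difference was -0.83 ± 0.19 (SE), with an adjusted p of 0.0034 in edgeR's quasi-likelihood test. Of 649 miRNAs tested, 231 (35.6%) were called in this window and 96 (14.8%) were called lower, and of the 4 members only miR-1249-3p was called.

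MiR-574-3p had 21.6 to 61.3 CPM (median 32.8) in CM and 43.2 to 82.4 CPM (median 52.4) in Ctrl mice, and 5 of 7 CM mice lay below every Ctrl mouse. Its difference of -0.55 ± 0.22 missed the threshold (edgeR, adjusted p = 0.061), with a 95% interval of -0.97 to -0.13. It passed without mice 3334 and 3335 (-0.68, edgeR, adjusted p = 0.036), and on leaving out mouse 3334, 3340, 3349, 3350 or 3370 alone. MiR-574-5p differed by -0.30 ± 0.24 (edgeR, adjusted p = 0.34, interval -0.77 to 0.16). For miR-204-5p the difference was -0.04 ± 0.47 (edgeR, adjusted p = 0.95), with an interval of -0.96 to 0.88. Its level spread from 1.13 to 11.5 CPM over the CM mice and from 1.93 to 10.6 CPM over the Ctrl mice.

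Among the relatives of the members, miR-1249-5p, the other strand of miR-1249, was lower in CM mice by a log2 difference of -0.71 ± 0.24 (edgeR, adjusted p = 0.034), at a mean level of only 0.817 CPM. MiR-211-5p was higher, by 0.48 ± 0.15 (edgeR, adjusted p = 0.022), with 51.6 to 82.3 CPM in CM and 33.3 to 67.9 CPM in Ctrl mice, ranges that overlapped. Whether it differed in this from miR-204-5p, whose interval holds the same value, was not tested. The strand partners miR-204-3p and miR-211-3p averaged 0.0947 and 0.386 CPM and did not pass the filter on low counts. In these libraries the summed miR-126a level had a median of 449 CPM in CM and 158 in Ctrl, with ranges of 204 to 2403 and 35.8 to 196 CPM. The miR-150 level had medians of 40693 and 52060 CPM, and the miR-223 level 8309 and 5931 CPM. Medians of the erythroid list were 41013 and 28526 CPM, and those of the epithelial list 1954.5 and 2425.7 CPM. For these other lists the ranges of the arms overlapped. Whether these markers bear on the difference in miR-1249-3p was not tested.

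At months 4 to 6, without the last CM libraries, 5 CM and 7 Ctrl mice remained. MiR-1249-3p measured 40.9, 46.5, 49.7, 56.8 and 73.1 CPM in the CM mice and 71.3 to 110.0 CPM (median 101.8) in the Ctrl mice. All CM mice except mouse 3370 lay below every Ctrl mouse. The log2 difference of -0.88 ± 0.16 (edgeR, adjusted p = 0.033) was close to that of months 1 to 3. Only 18 of 661 miRNAs (2.72%) were called in this window, 4 of them lower (0.605%), and miR-1249-3p was 1 of those 4. The call was lost on leaving out CM mouse 3336 or Ctrl mouse 3339, 3340, 3342 or 3346, with edgeR adjusted p between 0.053 and 0.12, while the difference stayed between -1.01 and -0.78 whichever mouse was left out.

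The strands of miR-574 differed from Ctrl by similar amounts at months 4 to 6 and neither was called. MiR-574-3p differed by -0.70 ± 0.26 (edgeR, adjusted p = 0.14) and miR-574-5p by -0.80 ± 0.32 (edgeR, adjusted p = 0.16). Their intervals were -1.20 to -0.19 and -1.43 to -0.17. For miR-574-3p, 4 of 5 CM mice lay below every Ctrl mouse, and for miR-574-5p 2 of 5. MiR-204-5p differed by -0.14 ± 0.65 (edgeR, adjusted p = 0.92), with 0.724 to 5.71 CPM in CM and 0.146 to 5.70 CPM in Ctrl mice.

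**Figure D3:**
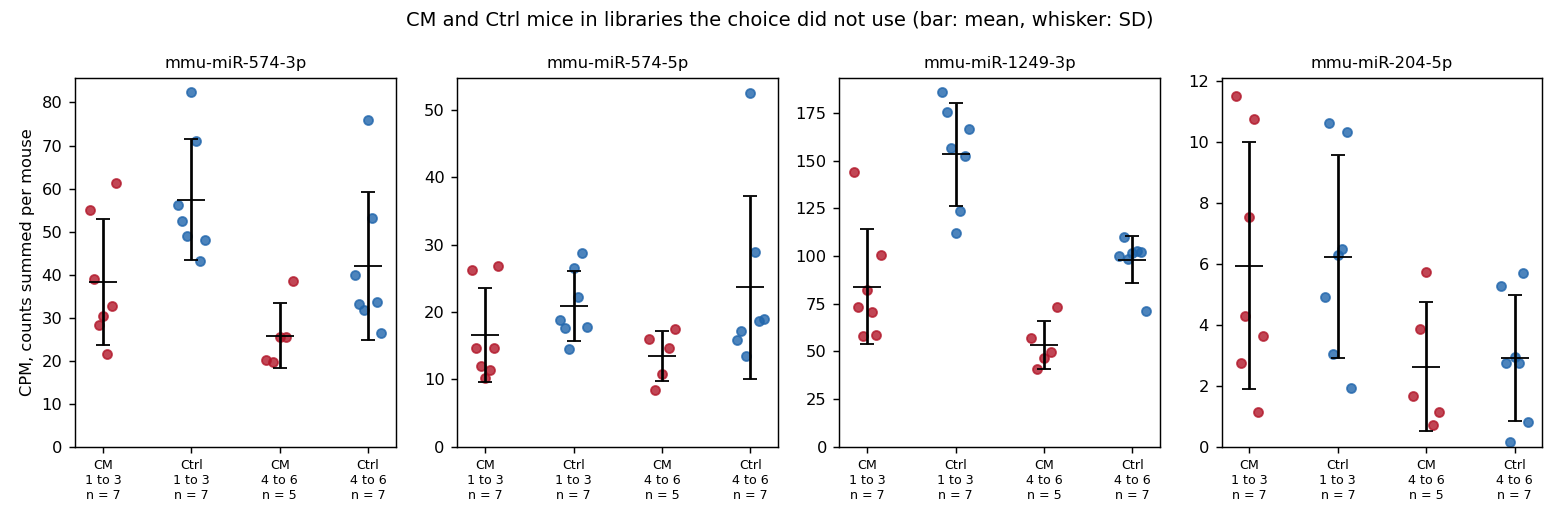
CPM from counts summed per mouse at months 1 to 3 and at months 4 to 6 (last CM libraries left out), with 1 point per mouse, CM in red, Ctrl in blue, the mean as a bar and the SD as whiskers. Most CM mice lie below every Ctrl mouse in both windows for miR-1249-3p (6 of 7 and 4 of 5) and for miR-574-3p (5 of 7 and 4 of 5). The arms overlap for miR-204-5p.

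Control mice gave the background for the course over months, and there miR-574-3p fell too. In Ctrl mice it ranged from 42.2 to 71.6 CPM (median 55.05) at month 0, from 18.4 to 30.2 CPM (median 21.8) at month 6 and from 13.7 to 36.9 CPM (median 20.7) at month 10. Neither late month overlapped month 0, and the level was lower than at month 0 in 7 of 7 and in 6 of 6 mice. The log2 change at month 6 was -1.28 ± 0.18 (edgeR, adjusted p = 0.00025), and that at month 10 was -1.21 ± 0.23 (edgeR, adjusted p = 0.0016). Among 474 miRNAs tested at month 6 the calls numbered 97 (20.5%), of them 46 lower (9.7%). Among 477 at month 10 they made up 26.8%, with 64 lower (13.4%) and 64 higher (13.4%).

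MiR-1249-3p fell less in Ctrl mice. It ranged from 87.8 to 222 CPM (median 164) at month 0 and from 48.5 to 138.9 CPM (median 79.9) at month 6, a log2 change of -0.77 ± 0.26 (edgeR, adjusted p = 0.046), lower in 6 of 7 mice. With mouse as replicate block this was -0.86 (edgeR, adjusted p = 0.059), and the call was also lost without mouse 3335, 3339, 3340, 3349 or 3350. At month 10 it ranged from 64.5 to 173 CPM (median 95.2), and the change of -0.56 ± 0.24 was not called (edgeR, adjusted p = 0.095), but it was without mouse 3335 (-0.80, edgeR, adjusted p = 0.028).

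By month 10 miR-574-5p had gone the other way from its hairpin partner. It ranged from 18.8 to 32.98 CPM (median 21.9) at month 0 and from 28.1 to 71.6 CPM (median 30.3) at month 10, and rose by 0.78 ± 0.24 on the log2 scale (edgeR, adjusted p = 0.024), higher in 5 of 6 mice. The call was lost with mouse as replicate block (0.66, edgeR, adjusted p = 0.090), without a filter on low counts (0.70, edgeR, adjusted p = 0.10) and without mouse 3340 or 3342. At month 6 the change of 0.56 ± 0.44 was not called (edgeR, adjusted p = 0.39), with 9.83 to 94.3 CPM (median 20.4). The level was then lower than at month 0 in 4 of 7 mice, and the change was -0.065 without mouse 3342.

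MiR-204-5p did not pass the filter on low counts in these comparisons. In Ctrl mice it went from 1.34 to 10.7 CPM (median 5.28) at month 0 to 0.307 to 2.63 CPM (median 1.15) at month 6 and 0.367 to 2.51 CPM (median 0.719) at month 10, and was lower than at month 0 in 7 of 7 and in 6 of 6 mice. Without the filter its log2 change was -1.86 (edgeR, adjusted p = 0.037) and -2.33 (edgeR, adjusted p = 0.012) for these months, on counts of 1 to 13 at month 6 and 1 to 11 at month 10.

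The myeloid markers miR-223-3p and -5p also declined in Ctrl mice, with medians of 11152, 4808 and 3679 CPM at months 0, 6 and 10. The lymphocyte markers miR-150-5p and -3p had medians of 45056, 28400 and 18414 CPM, with overlapping ranges. The erythroid list went from a median of 47706 to 99675 and 80615 CPM. Whether they bear on the members was not tested.

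A slope common to the mice was fitted over all Ctrl libraries, with each of the 76 libraries of 7 mice as a sample. The p-values of this fit therefore rest on libraries. With mouse as a block the slope was -0.17 log2 per month for miR-574-3p (edgeR, adjusted p = 1.3e-10), -0.10 for miR-1249-3p (edgeR, adjusted p = 7.9e-05) and 0.08 for miR-574-5p (edgeR, adjusted p = 0.0052). These 3 members were called in a fit that called 337 of 575 miRNAs (58.6%), with 28.7% of those tested falling and 29.9% rising, so most miRNAs tested in Ctrl blood had a slope over months. MiR-204-5p had a slope of -0.15 (edgeR, adjusted p = 0.081), which was -0.25 without Ctrl mouse 3339 (edgeR, adjusted p = 0.0025) and 0.03 without the replicate block.

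CM and Ctrl slopes were compared over months 1 to 9, again without the last CM libraries and with each library as a sample. From month 7 on, the CM libraries left came from mice 3368 and 3370 alone, and those of mice 3338 and 3357 ended at month 3. All 7 Ctrl mice had libraries to month 9. MiR-574-3p had slopes of -0.16 in CM (edgeR, adjusted p = 0.015) and -0.20 in Ctrl (edgeR, adjusted p = 3.8e-09). MiR-1249-3p had slopes of -0.16 in CM (edgeR, adjusted p = 0.025) and -0.13 in Ctrl (edgeR, adjusted p = 9.2e-05). For these 2 members the decline outside the last libraries was therefore present in both arms. MiR-574-5p had slopes of -0.04 in CM (edgeR, adjusted p = 0.69) and 0.09 in Ctrl (edgeR, adjusted p = 0.012), and miR-204-5p of -0.20 (edgeR, adjusted p = 0.39) and -0.12 (edgeR, adjusted p = 0.26). Called slopes numbered 75 of 657 (11.4%) in CM, 6.85% of those tested falling, and 345 of 657 (52.5%) in Ctrl, 24.2% falling and 28.3% rising. The CM slopes rested on fewer libraries, so these counts do not compare the arms.

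No member had a called difference between the slopes, against 4 of 657 miRNAs (0.609%) overall. The difference, CM minus Ctrl in log2 per month, was 0.04 ± 0.05 for miR-574-3p (interval -0.06 to 0.15) and -0.03 ± 0.06 for miR-1249-3p (interval -0.14 to 0.08). For miR-574-5p it was -0.14 ± 0.06 (edgeR, adjusted p = 0.39, interval -0.27 to -0.01), and for miR-204-5p -0.08 ± 0.17 (interval -0.41 to 0.25). The 4 called miRNAs, named here after their values were seen, were miR-328-3p (-0.15), miR-379-5p (0.46), miR-409-5p (0.67) and miR-541-5p (0.46), each with an edgeR adjusted p of 0.038.

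**Figure D4:**
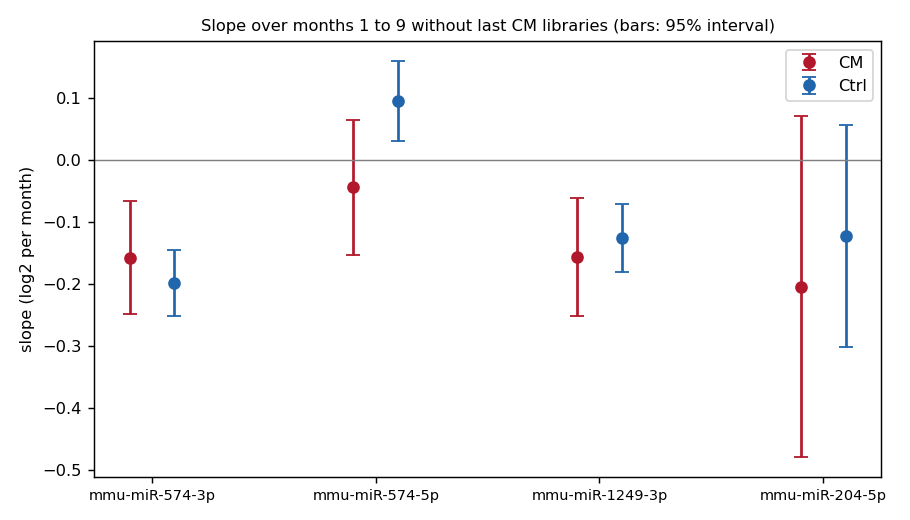
Slope in log2 per month over months 1 to 9, without the last CM libraries, for each member in CM (red) and Ctrl (blue). Bars are 95% intervals of a fit with each library as a sample. From month 7 on, the CM libraries are those of mice 3368 and 3370. The intervals of miR-574-3p and miR-1249-3p lie below 0 in both arms, and the Ctrl slope of miR-574-5p lies above 0.

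Since both strands come from 1 hairpin, the ratio of miR-574-5p to miR-574-3p counts was followed in every library. It was below 1 in most libraries up to month 5 and rose from month 6 on in both arms. In Ctrl libraries it was 0.219 to 1.71 (median 0.381) at months 0 to 5, above 1 in 2 of 42, and 0.514 to 5.25 (median 1.24) at months 6 to 10, above 1 in 21 of 34. At month 5 all 7 Ctrl libraries lay between 0.372 and 0.448, and at month 6 between 0.514 and 5.06, without overlap. In CM libraries the median was 0.428 at months 0 to 5 (0 of 38 above 1) and 0.816 at months 6 to 10 (4 of 15 above 1). The ratio of counts summed over the later months was the higher one in all 12 mice that had libraries there. The split at month 6 was chosen after these values were seen, so it was given no test.

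Per the labels, training libraries were spread over randomized preparation batches, and the titles carry a G number from 1 to 7. The median ratio was higher at months 6 to 10 than at months 0 to 5 within each of the 7 G numbers, with medians of 0.296 to 0.444 early and 0.614 to 1.38 late. A batch that followed the time of blood sampling cannot be told apart from age. In the last CM libraries the ratio was 0.435 to 2.08, and at 2.08 in mouse 3368 and 1.06 in mouse 3341 it exceeded 1.

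**Figure D5:**
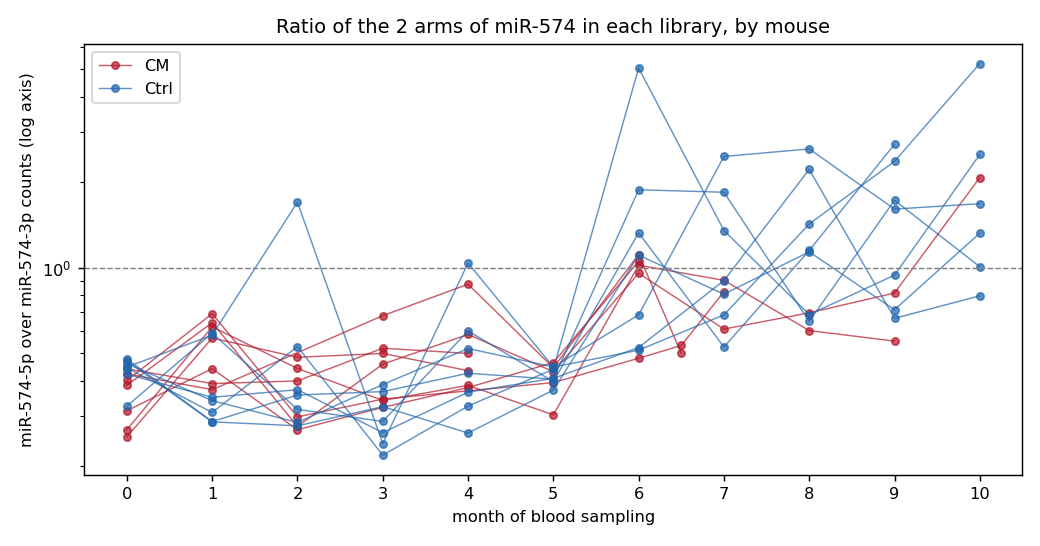
Ratio of miR-574-5p to miR-574-3p counts (log axis) in each library against the month of blood sampling, with 1 line per mouse, CM in red and Ctrl in blue, and a dashed line at 1. Ctrl libraries have a median of 0.381 at months 0 to 5 and 1.24 at months 6 to 10.

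The miRNAs most like each member were ranked by Spearman's rho over all training libraries among 331 miRNAs at a mean of 10 CPM or more. These are descriptions, since libraries share mice. MiR-574-3p was most like miR-139-5p (rho 0.853), miR-149-5p (0.833) and miR-455-3p (0.745), and miR-1249-3p was most like miR-500-3p (0.850), miR-5107-5p (0.841) and miR-342-5p (0.813). MiR-574-5p was most like miR-669c-5p (0.708), miR-139-3p (0.70) and miR-324-5p (0.649). In Ctrl mice miR-669c-5p had a median of 47.6 CPM at month 5 and 78.02 CPM at month 6, with overlapping ranges of 40.9 to 66.8 and 47.9 to 240.4 CPM.

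The libraries include those on which the members were chosen, so likeness between members is partly built in. Between the members, rho was 0.691 for miR-574-3p with miR-1249-3p and 0.460 for miR-574-5p with miR-1249-3p. It was only 0.266 for the strands of miR-574. MiR-204-5p stood apart, at 0.294 with miR-574-3p, 0.188 with miR-1249-3p and -0.112 with miR-574-5p. Its nearest miRNAs were miR-184-3p (0.451), known from corneal and lens epithelium, miR-6238 (0.413) and miR-298-5p (0.412).

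The libraries with most miR-204-5p were few. Ctrl mouse 3339 reached 517 counts (132.9 CPM) at month 8, and CM mouse 3370 had 328 counts (108.2 CPM) at month 0. Among all training libraries, the one of mouse 3370 at month 0 also had the highest miR-184-3p, 3349 CPM against a median of 350 CPM in CM libraries. The library of mouse 3339 at month 8 held 322 CPM of miR-184-3p, which was rank 64. The next 3 libraries by miR-204-5p were CM mouse 3334 at month 0, Ctrl mouse 3339 at month 2 (26.8 CPM) and CM mouse 3334 at month 3 (21.9 CPM), with ranks 9, 3 and 4 by miR-184-3p. These 5 libraries were drawn from 3 mice. MiR-184-3p was named for its rho with miR-204-5p over the same libraries, so shared high ranks are partly built in.

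In the validation cohort, point 5 alone was sequenced to a depth like that of the training cohort, with 1645456 to 5445215 reads in 12 libraries. MiR-1249-3p was 447 to 2033 CPM (median 1112) in 6 CM and 1054 to 2203 CPM (median 1245) in 6 Ctrl mice, and 3 CM mice lay below every Ctrl mouse. MiR-574-3p was 172 to 711 CPM (median 608) and 510 to 699 CPM (median 577). Levels were set separately in this cohort and were not compared with the training cohort.

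The differences at point 5, on the log2(CPM + 1) scale, were -0.47 ± 0.37 for miR-1249-3p, -0.39 ± 0.36 for miR-574-3p and -0.40 ± 0.35 for miR-574-5p (limma, each with an adjusted p of 0.94). Their 95% intervals, -1.19 to 0.26, -1.09 to 0.31 and -1.09 to 0.28, hold both a difference of 0 and the training difference of miR-1249-3p. MiR-204-5p had 0 to 77.6 CPM (median 33.6) in CM and 7.85 to 316 CPM (median 110) in Ctrl mice, a difference of -1.79 ± 0.93 (limma, adjusted p = 0.87). No miRNA of 930 was called at this point (0%), with 54 at an unadjusted p under 0.05, and edgeR on recovered reads called 0 of 478, with 70 at an unadjusted p under 0.05.

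The other 90 validation libraries held 1744 to 76906 reads, so that 3 counts are worth 39.0 CPM or more before scaling. No read of miR-204-5p was in any of them, at most 1 of miR-574-3p, and at most 3 each of miR-1249-3p and miR-574-5p. Between point 1 and point L of 5 CM mice, miR-1249-3p went from 1, 2, 1, 3 and 3 reads to 1, 0, 0, 1 and 0 reads. Its difference of -4.54 ± 1.63 (limma on log2(CPM + 1), adjusted p = 0.057) rests on these few reads and on the scaling of the deposited CPM. The libraries held 23946 to 40253 reads at point 1 against 2547 to 16945 at point L. Only mice 2690 and 2719 had a read at point L, 1 of 8931 and 1 of 8444 reads. At point 1 they had 1 of 23946 and 3 of 26482 reads, so their share of reads did not fall. Their deposited CPM did fall, in mouse 2719 from 190.8 to 16.88. Of 166 miRNAs, 30 (18.1%) were called between point 1 and point L, 11 of them lower (6.63%). The other members did not pass the filter, and a change in them was not detectable at this depth.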

How the data were processed

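Small RNA of PBMC was sequenced in 129 training and 102 validation libraries. Per the study's methods the authors trimmed adapters with cutadapt, aligned reads to mm9 with Bowtie and computed CPM after TMM scaling in edgeR, whereas the labels name GRCm38. The deposited training counts are raw whole numbers, made by the authors with mirTOP at settings not given in the sources used here. The deposited CPM tables are a TMM-scaled signal, and 100.0% of the values tested came out as whole reads (tolerance 0.05). All columns were mapped to samples by name (0 were not). Replicates were separate mice.

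Counts were tested with edgeR 4.0.16 (R 4.3.3; glmQLFit and glmQLFTest, TMM, filterByExpr) and validation values with limma 3.58.1, on the log2 of CPM with a pseudocount of 1. A miRNA entered the limma test if its level reached 1 CPM in a number of libraries no lower than the size of the smaller group. All tests were two-sided. P-values were adjusted by Benjamini-Hochberg over all miRNAs tested, and a miRNA was called at an adjusted p under 0.05. The CPM of training libraries came from the raw counts, and that of validation libraries is the deposited value. SD and n refer to mice, as does the SE of comparisons between groups. Slope fits took each library as a sample, with an intercept for each mouse and a common slope in each arm. Their SE, intervals and p-values therefore rest on libraries and leave out differences in slope between mice. DESeq2 1.42.0, other scalings, filters, covariates, pseudocounts and sets of mice were the alternatives. A count test on reads recovered from the deposited CPM was added after seeing the data. The scripts were tested on simulated data.

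The 4 members were named in every comparison. Beside them stood the other strands of miR-1249 and miR-204, both strands of miR-211, and the 3 most correlated miRNAs of each member. The members and lists were chosen with earlier results of these data known. In comparisons between months or points, libraries of the same mouse stood in both groups. The main fits of these comparisons held no term for mouse, and mouse as replicate block was an alternative. The deviations of such paired libraries from the group means had median correlations of -0.051 (Ctrl months 0 and 6), -0.105 (Ctrl months 0 and 10) and -0.043 (CM month 0 and last). Muscle and liver marker lists were measured too. The summed muscle and vessel wall list had a median of 612 CPM in CM mice at month 0 and 218 CPM in their last libraries, and the liver marker miR-122-5p 1.91 and 1.39 CPM. Positions came from GENCODE vM1 and a match of each sequence to NCBIM37.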

Additional observations from a re-analysis of the deposited data

Results flagged for a closer look

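Of 44 groups of the members' levels examined (month 0, last CM libraries, Ctrl months 6 and 10, both windows and validation point 5), 4 held a sample far from the others of its group by Dixon's test on log2(CPM + 1), and chance alone gives such a sample in about 1 of 20 groups. CM mouse 3334 at month 0 stood apart for miR-574-3p, at 149.9 CPM against 63.7 CPM in the next mouse, and for miR-574-5p, at 63.5 CPM against 21.4 CPM. Without this mouse the described changes of the strands to the last libraries were -2.14 and -0.69 on the log2 scale.

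Ctrl mouse 3350 was the low sample for miR-1249-3p at months 4 to 6, at 71.3 CPM against 98.6 CPM in the next. In the validation cohort at point 5, CM mouse 2684 had 0 CPM of miR-204-5p, with the next CM mouse at 17.0 CPM, and this mouse also had the lowest miR-1249-3p of its group (447 CPM).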

How the results depend on the processing

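Of 680 values recomputed under an alternative, 586 kept their direction, their side of the threshold or, for a count, stayed within 1.5 times. The lower miR-1249-3p of CM mice at months 1 to 3 was called under every alternative, with edgeR, DESeq2 or limma adjusted p between 9.2e-05 and 0.0069. So was the fall of miR-574-3p in Ctrl mice at months 6 and 10, and with each mouse left out.

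The calls at months 4 to 6 numbered 47 with DESeq2, 44 with limma on the deposited CPM, 33 with each library as a sample and the G number, and 11 with sex as a covariate, and 0 to 40 on leaving out single mice. The differences in slope called numbered 0 without TMM, without a filter, on the deposited CPM and with the G number, 2 with a minimum of 10 counts and without the replicate block, 7 without mice 3334 and 3335, and 0 to 7 on leaving out single mice. Where none was called, edgeR had 47 to 178 at an unadjusted p under 0.05, limma on the deposited CPM 49. At months 4 to 6 without single mice it was up to 144 where none was called. Other counts were 203 for the Ctrl slope with a minimum of 10 counts, and 64 for Ctrl month 6 with mouse as replicate block (51 to 98 without single mice, the lowest without 3339, and 61 without 3350). For Ctrl month 10 they were 72 (without 3339) to 161. For point L they were 51 with a pseudocount of 10, 12 on recovered reads, and 14 to 39 without single mice (14 without 2719, 16 without 2708).

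MiR-574-3p at months 1 to 3 was called with DESeq2 (-0.56), a minimum of 10 counts (-0.59), the deposited CPM (-0.56), recovered counts (-0.62) and without mice 3334 and 3335 (-0.68), and ranged from -0.78 to -0.48 without single mice. MiR-1249-3p at months 4 to 6 ranged from -1.01 to -0.78. In Ctrl mice at month 6 it was not called without a filter (-0.75), without mouse 3335 (-0.70) or with the replicate block (-0.86), and ranged from -1.04 to -0.65. At month 10 it was called with the deposited CPM (-0.69) and without mouse 3335 (-0.80), and ranged from -0.80 to -0.38. MiR-574-5p at month 10 was not called without a filter (0.70) or with the replicate block (0.66), and ranged from 0.62 to 0.94, and at month 6 from -0.065 (without 3342) to 0.74. MiR-1249-3p at point L was called with a pseudocount of 10 (-2.52).

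Values of miR-204-5p changed sign most. At months 1 to 3 they were 0.035 on the deposited CPM and -0.32 to 0.10 without single mice. At months 4 to 6 they were 0.033 on the deposited CPM, 0.20 without mice 3334 and 3335, 0.54 with the G number, and -0.66 to 0.15 without single mice. Its slope difference was 0.0375 on the deposited CPM and -0.17 to 0.059 without single mice. Its Ctrl slope was called with DESeq2 (-0.16) and the G number (-0.16), was 0.0305 without the replicate block, and ranged from -0.25 to -0.086 without single mice. Slope differences of miR-574-3p ranged from -0.017 (without 3368) to 0.054 without single mice and up to 0.0953 in the fit with no replicate block, and that of miR-1249-3p was 0.0004 on the deposited CPM. None of these was called except where stated, and the cause was not tested. The replicate block changed no other call of a member. Without TMM the median change over all miRNAs in the last CM libraries was -0.25 in place of -0.06.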

Other observations

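The order of the monthly group medians differed between the members. For miR-1249-3p the Ctrl groups of months 2, 1 and 0 stood highest (168, 167 and 164 CPM). Its lowest medians were those of CM mice at month 4 (32.5 CPM, n = 6) and at month 6.5 (20.3 CPM, n = 2). Both of these CM groups hold last CM libraries, which entered the choice of the members, so their low place is partly built in. For miR-574-5p the highest medians were those of Ctrl mice at months 7 and 10 (31.1 and 30.3 CPM). Ranges of neighbours in these orders overlapped for miR-1249-3p throughout. In month 4 the Ctrl range of miR-1249-3p was the widest of any Ctrl month on the CPM scale, 21.2 to 189.7 CPM.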
